A study of Mus with 2 samples.

Results

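Apoptotic cell uptake genes were followed in IL-4-treated mouse macrophages given the FXR agonist GW4064 or its solvent. The 10 genes were a fixed list of Axl, Mertk, Tyro3, Gas6, Pros1, Mfge8, Lrp1, Elmo1, Dock1 and Timd4, found on the array through the RefSeq transcript of each probe. They were represented by 11 probes, and 9 of the 10 genes were well above background on both arrays, out of 13529 genes measured in all. Bone marrow derived macrophages (BMDMs) were grown from male C57BL6/J mice 10 weeks old for 7 d with 10 ng/mL of M-CSF, and then cultured for 24 h under M2 conditions, which here means 10 ng/mL of IL-4. Both groups received IL-4 and differed in treatment with DMSO or with 10 µM GW4064. Each group was 1 Agilent 1-colour array of Cy3-labelled RNA, and the labels do not say how many mice the cells of an array came from. The title, source and treatment labels of the GW4064 sample name GW4064, whereas its free-text description names DMSO.

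Uptake of apoptotic cells, or efferocytosis, is one of the main tasks of macrophages and is known to be strong in alternatively activated cells. Dying cells expose phosphatidylserine on their surface. Bridging molecules bind this lipid and link it to receptors on the macrophage, and the receptors signal to the Rac GTPase, which rearranges actin so that the corpse is enclosed. Tyro3, Axl and Mertk form the TAM family of receptor tyrosine kinases, which take Gas6 and protein S (Pros1) as ligands and also dampen inflammatory signalling. The nuclear receptors LXR and PPAR are known to raise the expression of Mertk and of bridging molecules in macrophages that have taken up apoptotic cells.

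Since each treatment was read on 1 array, no replicates were measured, no p-value can be given, and precision is limited by the number of arrays. Differences are log2 values, GW4064 minus DMSO, after the 75th percentile of each array was set to 0, and sizes of 2-fold and 1.5-fold were used in place of a test. That percentile was a signal of 1209 with DMSO and 1265 with GW4064. Signals and summed signals are given before this scaling, so their ratios differ slightly from the folds and log2 differences beside them. The scanner software gives an error of 1 sigma for each spot, and the 95% intervals below are 1.96 times the error that follows for the difference. They cover the reading of the spots and not the difference between cultures. Probes printed several times gave a second measure, with a median SD of 0.077 over the copies for 234 probes and of 0.11 for the 54 of them with signals of 50 to 500. Each of the 11 probes described here was printed once. Signals of different probes depend on their sequence and were not compared with each other. Summed signals of a list add such probes and are weighted towards the brightest of them.

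None of the 9 measured genes differed by 2-fold, and none by 1.5-fold. Their log2 differences ran from -0.32 for Tyro3 to 0.28 for Axl, and the median was -0.15, against 0.0068 over all genes measured. Across all genes, a gain of 2-fold or more with GW4064 was seen in 2.04% and a loss of that size in 2.71%, and at 1.5-fold the shares were 4.39% and 5.55%. By sign alone, 7 of the 9 genes were lower and 2 were higher, whereas 48.2% of all genes were lower. All 9 lay within the middle 90% of genes, between -0.65 and 0.53, and 3 lay within the middle 50%, between -0.12 and 0.13. The 95% interval of each of the 9 differences included 0, and 4 of them (Axl, Tyro3, Pros1 and Mfge8) were larger than 1 sigma of the spot error. That error was nearly the same for all 9 differences, from 0.204 for Mfge8 to 0.215 for Elmo1, and above the median SD of 0.077 over copies. Whether an interval included 0 therefore followed almost entirely from the size of the difference, and the intervals do not show that a gene was unchanged. With the spike-in control RNA taken as the reference of each array, the median of probes above background on both arrays moved from 0.012 to -0.15. Under that centring 8 of the 9 genes were lower, and Mertk changed sign. The same centring put the median of all genes at -0.16. With it, 53 of the 66 other measured genes of apoptotic cell uptake described below were lower. The share of all genes lower under it was not counted.

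**Figure D1:**
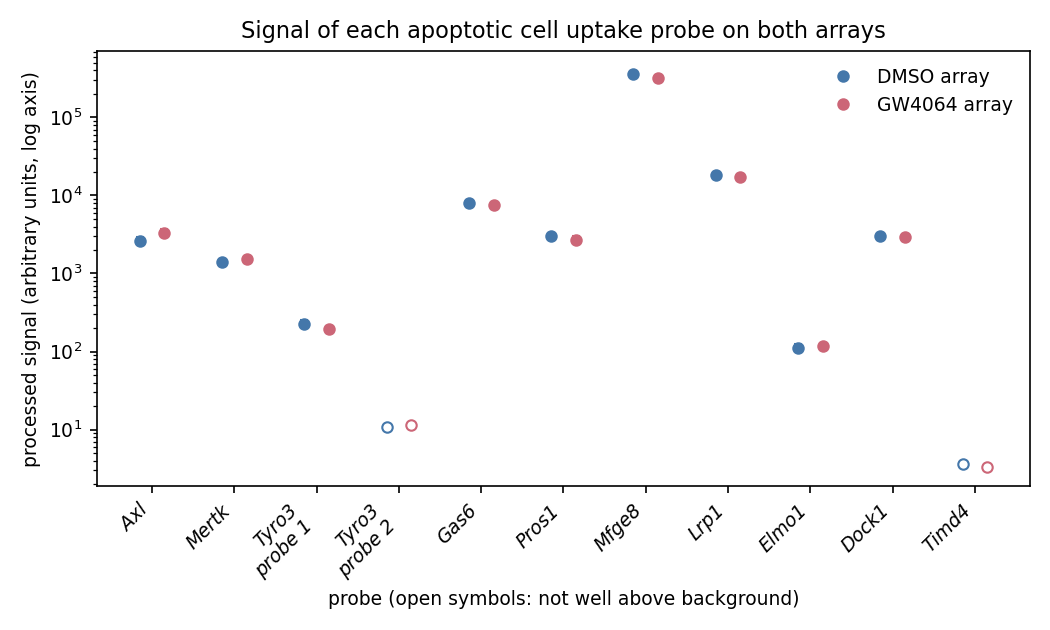
Processed signal (log axis, arbitrary units) of each of the 11 probes on the DMSO array and the GW4064 array. Bars are the scanner software's error of 1 sigma, mostly smaller than the symbols, and open symbols mark probes not well above background. Signals well above background ran from 112 with DMSO and 116 with GW4064 for Elmo1 to 362852 and 317874 for Mfge8. Differences such as that of Axl, with 2635 and 3351, look small on the log axis. The second Tyro3 probe and Timd4 were not well above background.

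Among the TAM receptors Axl had a slightly higher signal with GW4064, Tyro3 a slightly lower one and Mertk nearly the same, and all 3 intervals included 0. Axl, a receptor activated mainly by Gas6, had a signal of 2635 ± 264 (spot error) with DMSO and 3351 ± 335 with GW4064. After scaling, Axl was 1.22-fold higher, a log2 difference of 0.28 with an interval from -0.12 to 0.68. It was the highest difference among the 9 genes, and 88.5% of all genes had a lower one, as had 94.1% of 4278 probes whose mean signal was within 2-fold of it. The Axl spot had 4 other spots that differed 8-fold or more between the arrays within 300 µm. Places with 2 or more such spots are called areas of large differences here. Among 66 bright spots around it, in the 5 rows and columns on each side, the median difference was 0.069, and the part of the area in the value of Axl was not tested. Against the spike-in RNA, Axl had 0.12.

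Mertk, the TAM receptor most closely tied to engulfment by macrophages, had signals of 1392 ± 139 with DMSO and 1517 ± 152 with GW4064. Its log2 difference of 0.058 had an interval from -0.34 to 0.46, within 1.5-fold either way. The difference was below the median SD of 0.070 over copies of 107 probes with signals of 500 to 5000, and it was -0.11 against the spike-in RNA.

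Tyro3 was read by a pair of probes for the same transcript. One had signals of 228 ± 23.2 with DMSO and 192 ± 19.6 with GW4064, a log2 difference of -0.32 with an interval from -0.72 to 0.092. The other gave 10.8 and 11.6, not well above background with DMSO or GW4064, so that Tyro3 rests on 1 probe. Of the 9 genes this was the lowest difference, with 10.8% of all genes lower still. Among 4080 probes whose mean signal was within 2-fold of it, the middle 90% lay between -0.50 and 0.41, so that differences of this size were frequent at that signal. With both probes averaged, as without a filter on dim probes, the value was -0.14.

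Ratios between genes on the same array do not depend on a constant that scales a whole array. The 3 pairs of TAM receptors and the 3 pairs of bridging molecules were compared in this way, with no test. Axl over Tyro3 was 1.51-fold higher with GW4064 than with DMSO, a log2 value of 0.60 with an interval from 0.026 to 1.17. Axl over Mertk gave 0.22, with an interval from -0.34 to 0.79, and Mertk over Tyro3 gave 0.37, from -0.20 to 0.95. The bridging molecules differed from each other by less, with 0.079 for Gas6 over Pros1, 0.11 for Gas6 over Mfge8 and 0.031 for Pros1 over Mfge8. Of the 6 intervals only that of Axl over Tyro3 did not include 0. With the same error, its interval included 0 after quantile normalization (0.54, from -0.027) and without a filter on dim probes (0.42, from -0.15). It is not corrected for the 6 pairs, and it rests on 1 spot each, of which the Axl spot lay in an area of large differences.

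All 3 bridging molecules had slightly lower signals with GW4064, and their intervals included 0. Gas6, the vitamin K-dependent ligand of the TAM receptors, had 8001 ± 800 with DMSO and 7564 ± 756 with GW4064. The log2 difference of Gas6 was -0.15, with an interval from -0.55 to 0.25. Pros1, which encodes protein S, a plasma anticoagulant and ligand of Mertk and Tyro3, had 3039 ± 304 and 2720 ± 272. Its log2 difference was -0.23, with an interval from -0.63 to 0.17, and -0.14 after a normexp background correction.

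Mfge8 encodes a secreted protein that binds phosphatidylserine at one end and integrins at the other. It had a signal of 362852 ± 36285 with DMSO and 317874 ± 31787 with GW4064, 1.19-fold lower after scaling, and neither spot was saturated. The log2 difference was -0.26, with an interval from -0.66 to 0.14. Very bright probes varied little between the arrays. Of 103 probes whose mean signal was within 2-fold of Mfge8, the middle 90% lay between -0.13 and 0.18, and Mfge8 was below that range. Its value ran from -0.42 against the spike-in RNA to -0.21 after quantile normalization. In bulk RNA such as this, fewer cells of a type and less RNA per cell cannot be told apart.

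The receptor and the cytoskeletal genes of the list had differences from -0.15 to -0.016. Lrp1, a large endocytic receptor that takes up calreticulin-coated corpses, had signals of 18297 ± 1830 and 17305 ± 1730. This gave -0.15, with an interval from -0.55 to 0.25. Dock1 and Elmo1 encode partners of the exchange factor that activates Rac below the uptake receptors. Dock1 had 2999 ± 300 with DMSO and 2936 ± 294 with GW4064, a log2 difference of -0.096 with an interval from -0.50 to 0.30. Elmo1 had 112 ± 11.9 and 116 ± 12.2, with -0.016 and an interval from -0.44 to 0.41, and its sign turned after quantile normalization (0.050). As for Axl, 4 spots with 8-fold differences lay within 300 µm of the Elmo1 spot, and 66 bright spots around it had a median of 0.020. None of the other 7 measured genes had such a spot that near.

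Timd4 encodes a phosphatidylserine receptor best known from resident peritoneal macrophages. Its probe gave 3.65 ± 3.63 with DMSO and 3.34 ± 3.33 with GW4064, not well above background with either treatment. No fold is given for it, and a low level of Timd4 RNA would not be detectable at this signal.

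**Figure D2:**
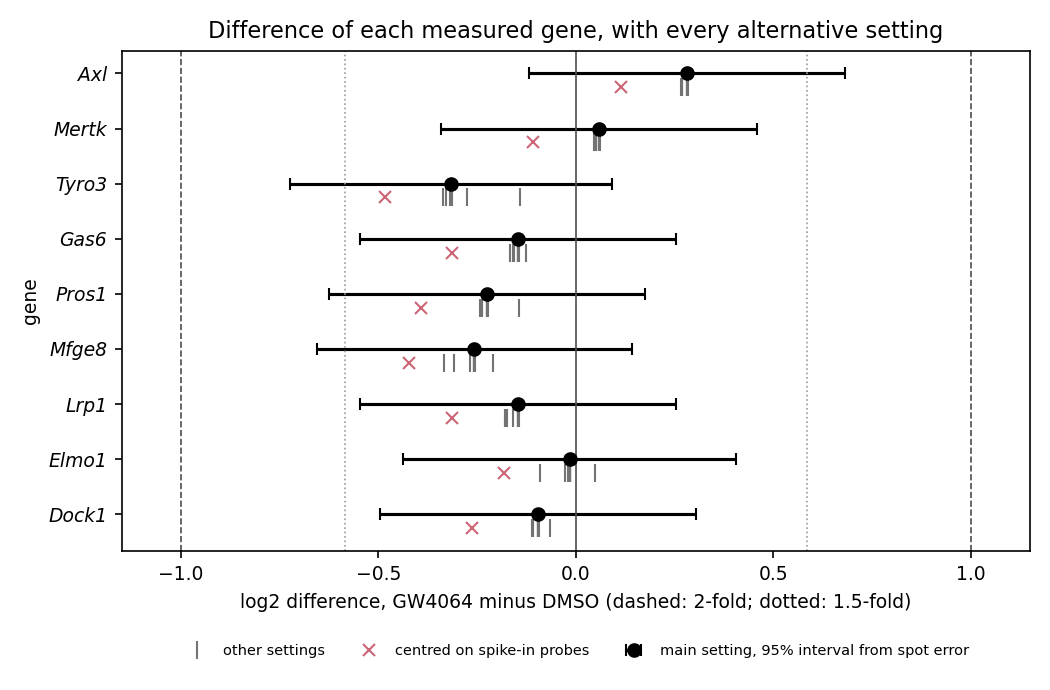
Log2 difference, GW4064 minus DMSO, of the 9 genes measured on both arrays. Points with bars are the main setting with the 95% interval from the spot error, grey ticks are alternative settings and crosses the centring on the spike-in RNA. Every interval includes 0, and every value lies inside the dotted lines at 1.5-fold.

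**Figure D3:**
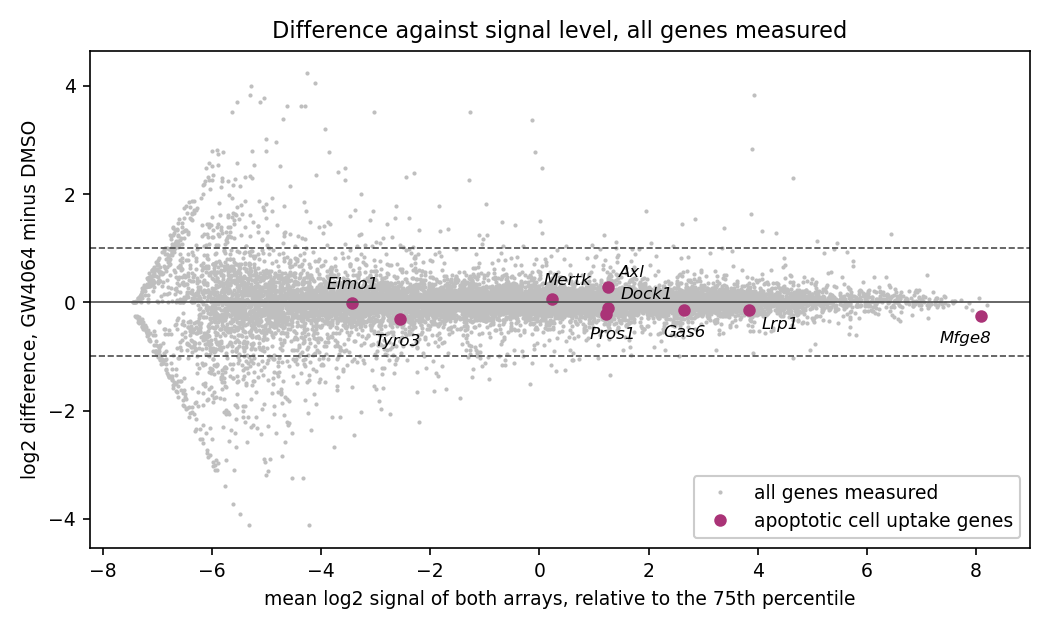
Log2 difference, GW4064 minus DMSO, against the mean log2 signal of both arrays for the 13529 genes measured (grey) and the 9 apoptotic cell uptake genes (named). Dim genes on the left scatter most. The 9 genes lie between -0.32 and 0.28, inside the dashed 2-fold lines, and Mfge8 lies at the bright end.

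Beyond the listed genes, 70 other genes of apoptotic cell uptake, taken from general knowledge, were examined in 6 lists. Of these 66 were measured, 29 higher and 37 lower with a median of -0.061, and 3 were 1.5-fold or more higher and 3 lower. Over all genes measured, 48.2% were lower, and at 1.5-fold 4.39% were higher and 5.55% lower. The counts at 1.5-fold were thus near the shares over all genes, and the genes past it are described singly below. The 12 measured receptors outside the list had a median of 0.015. Stab2, a scavenger receptor that recognises phosphatidylserine, had signals of 1179 with DMSO and 2545 with GW4064, a log2 difference of 1.05, and 0.88 against the spike-in RNA. Its relative Stab1 had 6890 and 9565, a log2 difference of 0.41. All 3 probes for Cd300lf, a lipid-binding receptor of myeloid cells, were higher, between 0.58 and 1.02 with a mean of 0.84. Each of these lay in an area of large differences, and the mean was 0.49 after the normexp correction. The integrin chains that receive Mfge8 were lower after scaling, none past 1.5-fold over the probes of a gene. Itgb3 had -0.80 on its brighter probe and -0.28 on the other, Itgb5 had -0.29, and Itgav had -0.48 on a probe in an area of large differences and -0.050 on another.

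Among 9 other opsonins, 4 were higher and 5 lower with a median of -0.019. Thbs1, which encodes thrombospondin, a bridge between dying cells and macrophages, had 1748 with DMSO and 1124 with GW4064, a log2 difference of -0.70, and its spot lay in an area of large differences. The 13 measured genes that carry the signal to the cytoskeleton had a median of -0.10. One of them, Bcar1, an adaptor below integrins, passed 1.5-fold, with signals of 103 and 68.4 and a log2 difference of -0.65, or -0.42 after the normexp correction. None of 15 phagosome and degradation genes reached 1.5-fold. The largest difference of that list was 0.36 for Dnase2a, which encodes the lysosomal nuclease that digests the DNA of the engulfed cell, from signals of 21725 and 29084 in an area of large differences.

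A further list held cholesterol efflux genes, nuclear receptors that respond to engulfed lipid, and Ucp2, a mitochondrial uncoupling protein. In it 9 of 9 measured genes were lower, against 48.2% of all genes measured, with a median of -0.30 and none past 1.5-fold. The values ran from -0.48 for the sterol exporter Abcg1 to -0.080 for Nr1h2, which encodes LXR beta. Abcg1 had 27623 with DMSO and 20784 with GW4064, and Abca1, another sterol exporter, had 8252 and 6603, or -0.39. The 2 probes for Nr1h3, which encodes LXR alpha, gave -0.47 each. Pparg, the PPAR gamma gene, printed 10 times, had -0.30. Of the 6 lists this one had the lowest median, and it was -0.47 against the spike-in RNA. Mertk, which LXR is known to regulate, differed by 0.058 on the same arrays and by -0.11 against the spike-in RNA. A link between Mertk and the genes of this list was not tested.

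In the list of signals between dying cell and macrophage, 4 of 8 genes were lower. Siglec1, a sialic acid-binding receptor of resident macrophages, had 170 with DMSO and 288 with GW4064 on one probe, a log2 difference of 0.70. On its other probe it was not well above background with DMSO (9.14) and had 69.8 with GW4064. That was 4.24-fold higher once the DMSO signal was raised to 15.7, the lowest signal well above background on that array. Lrp8, a lipoprotein receptor, had 75.4 and 56.3 on one probe, a log2 difference of -0.49. On the other it had 32.4 with DMSO and a signal not well above background with GW4064 (13.7). With the GW4064 signal raised to 15.1 in the same way, this was 2.24-fold lower. After the normexp correction the mean over the probes was 0.64 for Siglec1 and -0.39 for Lrp8. Of 8 partners of TAM signalling, Adam10, a protease that can shed surface receptors, was the 1 gene past 1.5-fold, with 7635 and 12010 and a log2 difference of 0.59, just past that size. It was under 1.5-fold after quantile normalization (0.56), loess (0.57) and centring on the median (0.58) or on the spike-in RNA (0.42). Ggcx, the enzyme that carboxylates Gas6 and protein S, had -0.013, and Socs1, an inhibitor of cytokine signalling that TAM receptors are known to induce, had -0.53 on a spot in an area of large differences.

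**Figure D4:**
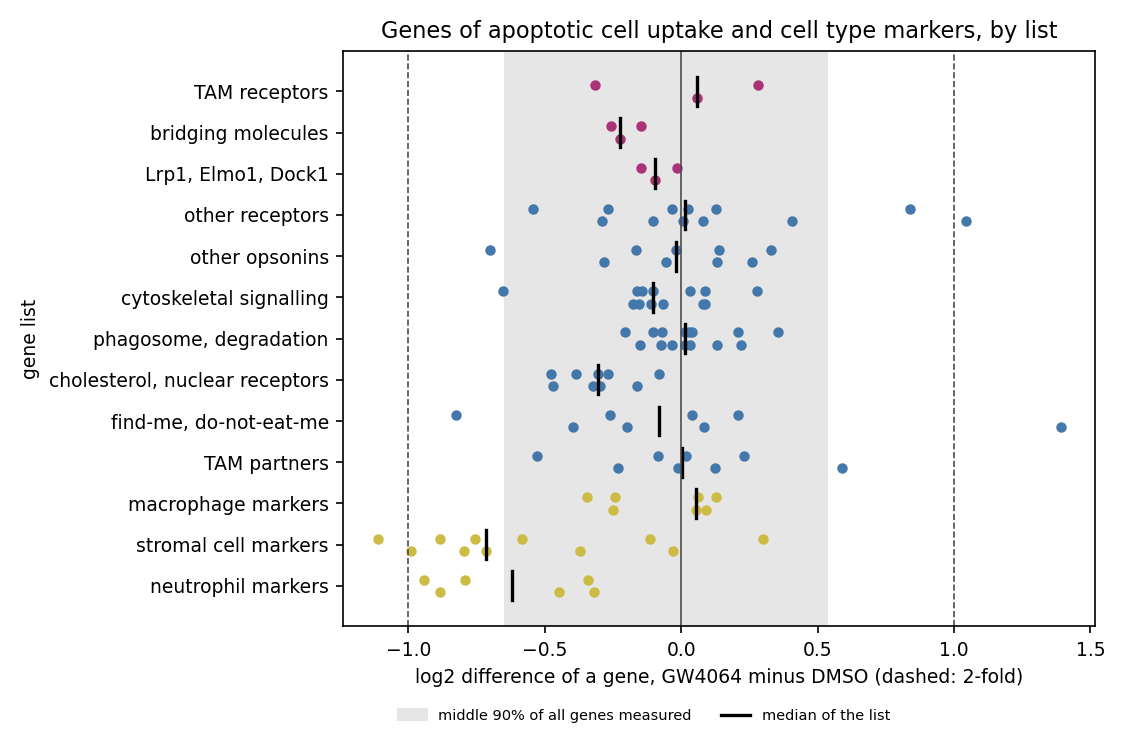
Log2 difference, GW4064 minus DMSO, of each measured gene, by list: the apoptotic cell uptake genes (purple), other genes of the process and of TAM signalling (blue) and cell type markers (yellow). Black lines are medians, the grey band holds the middle 90% of all genes, and dashed lines mark 2-fold. The purple points lie inside the band, and the stromal cell markers have the lowest median, -0.72.

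The macrophage label was checked with 8 markers, of which 7 had a matched probe. All 7 were well above background on both arrays, with differences from -0.34 to 0.13 and summed signals of 189051 with DMSO and 178303 with GW4064. Of the 4 M2 markers Arg1 was higher by 3.82 and Retnla by 0.91, and Mrc1 differed by -0.34. Chil3 differed by 0.066, below the median SD of 0.070 over copies of 66 probes with signals over 5000, and by -0.10 against the spike-in RNA. Markers of other cells differed between the arrays too. Of 12 stromal cell markers 11 were measured and 10 were lower, with a median of -0.72, and their summed signal went from 26817 with DMSO to 15184 with GW4064. Lum was not well above background with either treatment, and Kitl was higher, with 0.30. Of 8 neutrophil markers 6 were measured and all 6 were lower, with a median of -0.62 and summed signals of 13544 and 8780. Retnlg was not well above background. By comparison, 48.2% of all genes measured were lower. Gas6, Pros1, Mfge8, Lrp1 and Axl are also made by stromal cells, and the part of such cells in the values of these genes was not tested. The 3 lymphocyte markers that were measured had a median of -0.13, from 2.47-fold lower for Ms4a1 to 0.18 for Cd3e. Ms4a1 was not well above background with GW4064, and its signal there was raised to 15.1. Dendritic cell markers had a median of -0.041, with 5 of 6 measured. The lowest was -0.60 for Ccr7, or -0.087 after the normexp correction. Flt3 was not well above background with DMSO on its 1 usable probe, which lay in an area of large differences. With its DMSO signal raised to 15.7 it was 4.94-fold higher, and its log2 difference after the normexp correction was 0.72. No erythroid marker was well above background on both arrays, and their summed signals were 99.0 and 43.8. Most of that drop came from Klf1, with 54.2 and 4.77 on a spot in an area of large differences. Hba-a1 was lower too (23.3 and 7.52), whereas Hbb-bt was higher (16.6 and 28.0), also on a spot in an area of large differences.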

How the data were processed

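Scanner files deposited by the authors give an intensity for every spot, from which Agilent Feature Extraction 10.7.1.1 (per the submitters' processing notes) had removed background and spatial trends, with no scaling between arrays. A deposited log2 table covers the same arrays, and its baseline per probe is not given in the sources used here. The table's difference between arrays was an alternative.

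From the intensity, log2 values minus the 75th percentile of non-control spots were computed. Spots marked as non-uniform or as outliers among copies (399 with DMSO and 207 with GW4064) were left out, and copies were averaged. If a probe passed on only 1 array, its value on the other was raised to the lowest signal well above background (15.7 for DMSO and 15.1 for GW4064) if it lay under it. This makes the difference smaller but gives no strict minimum. Some probes not well above background had signals over that floor, such as 20.8 with DMSO for a probe of Elmo3. A difference that favoured the array on which the probe did not pass was set to 0, as for that probe. Probes well above background on neither array were left out. A gene is the mean of its probes. RefSeq names of GRCm38.p6 matched 26575 of 39429 probes. Coordinates were left out because the array was designed on another build, and no sequences were used here. Areas of large differences hold spots with 2 or more others that differ 8-fold or more within 300 µm (16.5% of spots, from 577 such differences).

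The genes, lists and alternatives were chosen with earlier results of these data known. All listed members are named. Of the other lists, genes past 1.5-fold or, failing that, the largest difference are named, and Stab1, the integrins, the cholesterol efflux genes, Ggcx, Socs1 and the marker genes were added after their values were seen. Alternatives were quantile normalization, centring on the median or on spike-in probes, loess (span 0.3), the deposited table, normexp (offset 50) on the median spot signal, other filters, the brightest probe and a threshold of 1.5-fold. Among the marker lists, 1 gene is not named here. The calculations were tested on simulated data. Statistics were computed with limma 3.58.1 in R 4.3.3 and with scipy 1.17.1, statsmodels 0.14.6, pandas 2.3.3 and numpy 2.4.6 in Python 3.11.15, and plots with matplotlib 3.10.9.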

Additional observations from a re-analysis of the deposited data

How the results depend on the processing

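No paired analysis was possible because only 1 array was made of each treatment. The count of apoptotic cell uptake genes 2-fold or more higher or lower was 0 under each of the 11 alternatives and at a threshold of 1.5-fold. With centring on the spike-in probes, which lowered each of these genes alike, their median log2 difference was -0.31. It lay between -0.17 and -0.13 under the other 10 alternatives. That centring turned the sign of Mertk (-0.11), and quantile normalization that of Elmo1 (0.050). Without spots in areas of large differences Axl and Elmo1 had no probe left, and 6 of the 7 remaining genes were lower. Over all genes, the filter on dim probes and normexp, which also used another signal and an offset, moved the counts most, from 276 higher and 367 lower to 698 and 767 without a filter on dim probes, 107 and 164 with probes above background on both arrays, and 72 and 64 with normexp. With those areas left out they were 168 and 202. The low signals of Tyro3 and Elmo1 and the background-level signal of Timd4 limit what these arrays can show for them.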
